A study of Mus musculus with 10 samples.

Results

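Mitochondria break down fatty acids and the carbon skeletons of leucine, isoleucine and valine through acyl-CoA intermediates, and the kidney proximal tubule draws much of its energy from this fatty acid oxidation. The results below concern 36 genes of these routes, matched by symbol in a kidney count table of 24062 genes: 17 enzymes of mitochondrial fatty acid β-oxidation and its electron transfer, and 19 enzymes of branched-chain amino acid and propionyl-CoA breakdown. All 36 were found, and all 36 passed the filter on low counts. They are grouped by pathway.

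The libraries are polyadenylated RNA of whole kidney from adult male mice. The main comparison sets 4 Ehhadh knockout animals (KO) against 4 wild-type animals (WT), all C57BL/6N. Ehhadh is the peroxisomal enzyme that carries out the enoyl-CoA hydratase and hydroxyacyl-CoA dehydrogenase steps on fatty acids chain-shortened in that organelle, and the mitochondrial fatty acid enzymes carry out the matching steps in another compartment. The labels give the genotype as KO or WT only, and name neither the allele nor the animals' exact ages or feeding state. A single wild-type kidney of DBA_2J and a single one of 129S2_SvPasCrl stand beside them with no replicate.

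Fatty acid β-oxidation removes an acetyl-CoA from the chain in each cycle of 4 reactions. An acyl-CoA dehydrogenase introduces a double bond and hands its electrons to the electron transfer flavoprotein (Etfa and Etfb), which passes them through Etfdh to the respiratory chain. A hydratase, a hydroxyacyl-CoA dehydrogenase and a thiolase complete the cycle; for long chains these 3 activities sit on the trifunctional protein of Hadha and Hadhb. Branched-chain amino acids are first transaminated by Bcat2 and then decarboxylated by the branched-chain α-ketoacid dehydrogenase complex, after which the branched acyl-CoAs enter routes that resemble β-oxidation and use the same electron transfer flavoprotein.

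Total counts ran from 19.8 to 57.3 M over the 10 libraries. The KO libraries were deeper (41.5 to 52.3 M) than the WT libraries (19.8 to 35.99 M), with no overlap (exact permutation test, two-sided, p = 0.0286, the smallest that 4 against 4 allow). CPM is counts per M of a library's counts in the 15547 tested genes, after TMM scaling. Ehhadh was read at 285, 331, 248 and 176 CPM in KO and 3439, 2232, 2100.2 and 2197 CPM in WT. It was lower in all 4 KO libraries (log2 fold change −3.26, SE 0.212, adjusted p = 1.86e-05; chr16:21761285-21787834, mm10), as labelled. Of 15547 genes tested with edgeR's quasi-likelihood test, 982 were higher in KO (6.32%) and 728 lower (4.68%) at an adjusted p under 0.05. Upper-quartile scaling moved that split to 832 higher and 938 lower and the median of all genes from −0.01 to −0.03 (log2). In 9.77% of genes the 4 KO libraries all lay above the 4 WT libraries, and in 7.95% all lay below. Titles with a leading E hold 2 KO and 2 WT libraries (replicates 3 and 4 of each), and what they mark is not in the labels. Titles also carry a number that no KO animal has in common with a WT animal, and genotype and that number cannot be told apart.

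In the 4 WT kidneys, the β subunit of the electron transfer flavoprotein and 2 dehydrogenases led the 36 genes in level per length. Etfb stood highest at 720.5 ± 64.1 RPKM (CPM per kilobase of exon, SD, n = 4), followed by Acadm at 525 ± 55.9 and Hadh at 447 ± 21.8. The highest branched-chain enzymes were Hibadh at 372 ± 24.8, Aldh6a1 at 345 ± 21.6 and Bckdha at 326 ± 32.0 RPKM, whose ranges of mean ± SD overlap. The fatty acid enzymes had a median of 204 RPKM (25.0 to 720) and the branched-chain enzymes a median of 65.4 RPKM (26.9 to 372). At the low end of the scale were Acad9, a dehydrogenase that also serves complex I assembly, at 25.0 ± 1.08, and the ketoacid dehydrogenase subunits Dbt and Bckdhb at 26.9 ± 1.29 and 28.4 ± 1.59 RPKM. The spread between the 4 WT animals was small, with a median coefficient of variation of 7.39% over the fatty acid enzymes and 6.27% over the branched-chain enzymes.

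In KO kidneys the enzymes that passed were all lower, by modest amounts. Of the 17 fatty acid enzymes, 3 were lower (17.6%, against 4.68% of all tested genes) and none was higher. Of the 19 branched-chain enzymes, 7 were lower (36.8%) and none was higher. The median log2 fold change was −0.12 for the fatty acid enzymes and −0.17 for the branched-chain enzymes, beside −0.01 for all tested genes. Differences below 0 were seen for 15 of 17 and 17 of 19 enzymes, beside 51.1% of all tested genes. All 4 KO libraries lay below all 4 WT libraries for 3 of 17 and 7 of 19 enzymes, beside 7.95% of all tested genes, and above them for none, beside 9.77%. The 10 genes that passed fell by 14.0% to 28.5%. In whole-kidney RNA, fewer cells of a type and less RNA per cell cannot be told apart.

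**Figure D1:**
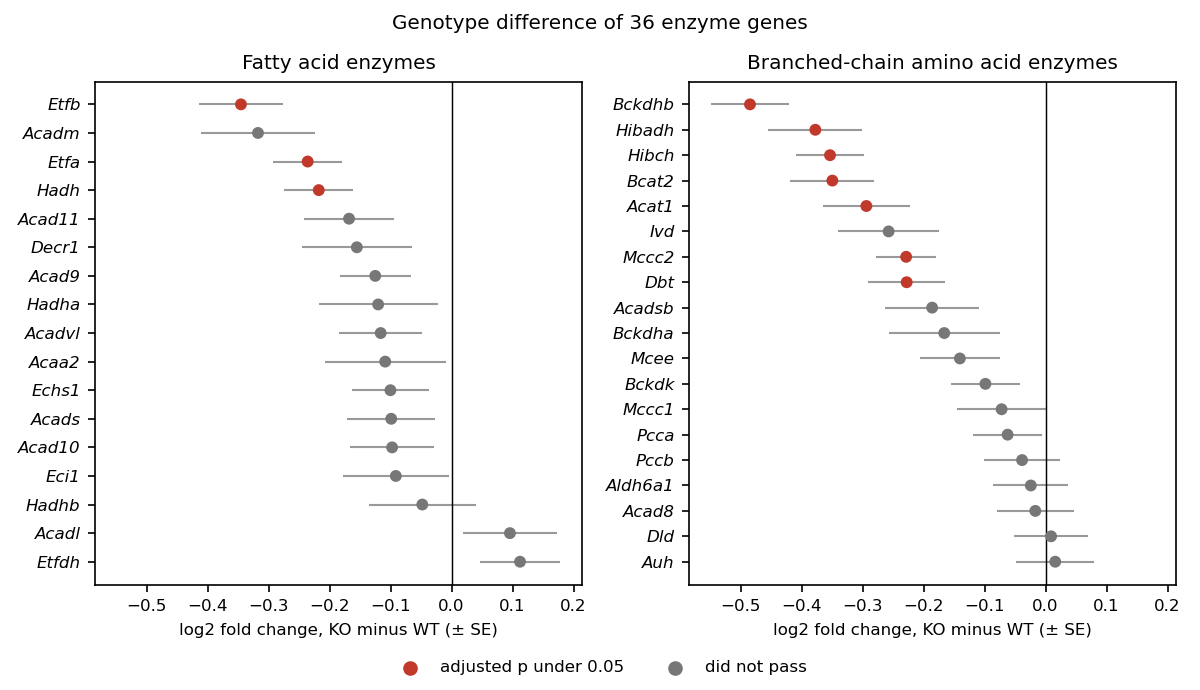
Each point is the log2 fold change of 1 enzyme gene (KO minus WT, 4 libraries each) from edgeR, and the line spans ± 1 SE. Red points passed an adjusted p of 0.05; all 10 of them lie below 0, from −0.22 (Hadh) to −0.48 (Bckdhb).

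Among the fatty acid enzymes, both subunits of the electron transfer flavoprotein were lower in KO. Etfb, the β subunit (chr7:43444072-43457800), was read at 531, 505, 514 and 501 CPM in KO and 653, 576, 659.5 and 717 CPM in WT. Every KO library lay below the lowest WT library, and the gene fell by 21.3% (513 ± 13.4 against 651 ± 57.9 CPM, SD, n = 4 each; edgeR log2 fold change −0.35, SE 0.0688, adjusted p = 0.00972). It passed in all 8 fits that left out 1 library, with a highest adjusted p of 0.0319. Etfa, the α subunit (chr9:55454436-55512243), was read at 425, 427, 426 and 386 CPM in KO and 504, 497, 468 and 490.0 CPM in WT. The groups did not overlap, KO 4 was the lowest library, and the gene fell by 15.1% (edgeR log2 fold change −0.24, SE 0.0567, adjusted p = 0.0234). Etfa did not pass without KO 1, WT 1 or WT 2 (edgeR adjusted p = 0.053, 0.0664 and 0.0576). Etfdh, the membrane oxidoreductase that takes electrons from the flavoprotein, was read at 312, 336, 292 and 307 CPM in KO and 315, 287, 274 and 277 CPM in WT. Its groups overlapped and its difference was positive (edgeR log2 fold change 0.11, adjusted p = 0.312), so the flavoprotein's 2 genes were lower while its acceptor did not pass in either direction.

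Hadh, the short- and medium-chain hydroxyacyl-CoA dehydrogenase of the matrix (chr3:131233420-131272101), was the third fatty acid enzyme to pass. It was read at 678, 711, 664 and 695 CPM in KO and 826, 839, 766 and 764 CPM in WT. All KO libraries lay below all WT libraries, and the gene fell by 14.0% (687 ± 20.2 against 799 ± 39.0 CPM, SD, n = 4 each; edgeR log2 fold change −0.22, SE 0.0569, adjusted p = 0.0329). This call was the least stable of the 3: it was lost without KO 1, KO 2, KO 3, WT 1, WT 2 or WT 3, with edgeR adjusted p-values of 0.0583 to 0.0879. Without KO 1, WT 1 or WT 2, 1 of these 3 fatty acid enzymes (Etfb) still passed.

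The acyl-CoA dehydrogenases, which open each cycle and differ in the chain length they accept, did not pass. Acadm, the medium-chain enzyme, came closest. It was read at 924, 968, 770.0 and 812 CPM in KO and 1164, 966, 1002 and 1197 CPM in WT, so WT 2 (966) lay beside KO 2 (968) and the groups overlapped. Its difference was close to that of Etfb, with a wider spread between animals (868 ± 92.7 against 1082 ± 115 CPM, SD, n = 4 each; edgeR log2 fold change −0.32, SE 0.0938, adjusted p = 0.0525), and it did not pass with RLE scaling or at equal depth. Acadm passed in DESeq2 (adjusted p = 0.0129), in limma-voom (0.0499), and in edgeR with upper-quartile scaling (0.0358), without a filter on low counts (0.0493) and with title form as a term (0.0393). Without KO 2 or WT 2 Acadm also passed in edgeR (adjusted p = 0.0487 and 0.0435). Acadl, the long-chain enzyme, was read at 617, 607, 505 and 560.1 CPM in KO and 534, 502, 519 and 586 CPM in WT, with overlapping groups (edgeR log2 fold change 0.10, adjusted p = 0.478). Acadvl, the very-long-chain enzyme, was read at 667, 663, 572 and 633 CPM in KO and 732, 649, 658 and 709.9 CPM in WT (edgeR −0.12, adjusted p = 0.315), and Acads, the short-chain enzyme, differed by −0.10 (adjusted p = 0.429). Acad9 was read at 87.0, 96.8, 87.0 and 88.5 CPM in KO and 102, 99.3, 91.9 and 99.2 CPM in WT, and Acad10 at 112, 114, 124 and 135 CPM in KO and 135, 135, 125 and 125 CPM in WT, both with overlapping groups. With Acad11, these less studied family members differed by −0.13 (Acad9), −0.10 (Acad10) and −0.17 (Acad11; edgeR adjusted p = 0.202, 0.417 and 0.176). Acad11 shares 62 exon bases with Ackr4, and reads there were counted for both genes.

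The hydratases, isomerases and thiolases did not pass either. Hadha, the trifunctional protein's α subunit with its hydratase and long-chain dehydrogenase activities, was read at 312, 338, 267 and 359 CPM in KO and 368, 301, 339.6 and 378 CPM in WT. Hadhb, the β subunit with the thiolase activity, differed by −0.05 (edgeR adjusted p = 0.782), and Hadha by −0.12 (adjusted p = 0.484). Both had overlapping groups, and Hadha shares 77 exon bases with Gareml, where reads were counted for both genes. Acaa2, the medium-chain thiolase, was read at 512, 532, 422 and 429 CPM in KO and 548, 434, 505 and 559 CPM in WT, again with overlapping groups (edgeR log2 fold change −0.11, adjusted p = 0.541). Echs1, the short-chain enoyl-CoA hydratase, differed by −0.10 (edgeR adjusted p = 0.357). Eci1 and Decr1 prepare the double bonds of unsaturated fatty acids. Eci1 was read at 251, 265, 227 and 254 CPM in KO and 280.3, 241, 237 and 305 CPM in WT (edgeR −0.09, adjusted p = 0.557). Decr1 was read at 445, 475, 379.7 and 433 CPM in KO and 517, 420.5, 456 and 536 CPM in WT (edgeR −0.16, adjusted p = 0.312), and the groups of both overlapped. For the 14 fatty acid enzymes that did not pass, SEs of 0.058 to 0.099 (log2) set how small a difference could be seen.

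Hadha and Hadhb are transcribed in opposite directions from neighbouring starts, and the stretch between them is shown because it lies before the starts of both subunits. The annotated starts enclose chr5:30154981-30155252 (GRCm38.p6, plus strand, 272 bases, from RefSeq), of which 60.3% is G or C, with 18 CG dinucleotides.
Hadha–Hadhb: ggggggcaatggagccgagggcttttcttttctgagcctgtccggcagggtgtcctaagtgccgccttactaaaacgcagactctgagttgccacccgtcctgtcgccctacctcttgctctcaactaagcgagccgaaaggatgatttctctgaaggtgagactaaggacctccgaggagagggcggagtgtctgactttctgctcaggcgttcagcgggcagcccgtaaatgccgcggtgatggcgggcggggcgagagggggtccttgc
Within each library, Hadha reads per kilobase were 0.693, 0.676, 0.679 and 0.772 times those of Hadhb in KO and 0.716, 0.682, 0.816 and 0.760 times in WT. The ratio of the 2 genes thus stayed in a narrow range over the 8 libraries and overlapped between genotypes (difference −0.08, log2; exact permutation test, two-sided, p = 0.314, adjusted p = 0.377 over 6 ratios).

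The gene of the entry enzyme of the branched-chain route was lower. Bcat2, the mitochondrial aminotransferase that removes the amino group of leucine, isoleucine and valine (chr7:45570153-45589710), was read at 74.7, 68.1, 72.9 and 84.6 CPM in KO and 99.2, 97.0, 94.9 and 91.8 CPM in WT. All KO libraries were below all WT libraries, with KO 4 nearest to them, and the gene fell by 21.5% (edgeR log2 fold change −0.35, SE 0.0687, adjusted p = 0.00897). Bcat2 shares 50 exon bases with 0610005C13Rik, and reads there were counted for both. It passed in all 8 fits without 1 library (highest adjusted p = 0.0308).

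The next step, the branched-chain α-ketoacid dehydrogenase complex, held the gene with the largest difference among the 36. Bckdhb, the β subunit of its decarboxylase (chr9:83948781-84124240), was read at 29.4, 26.7, 28.2 and 29.3 CPM in KO and 40.8, 42.1, 36.9 and 39.2 CPM in WT. The highest KO library stood well below the lowest WT library, and the gene fell by 28.5% (28.4 ± 1.27 against 39.8 ± 2.23 CPM, SD, n = 4 each; edgeR log2 fold change −0.48, SE 0.0634, adjusted p = 9.05e-04). It passed in all 8 fits without 1 library, with a highest adjusted p of 0.00468. Dbt, the acyltransferase core of the complex (chr3:116513079-116549981), was read at 69.3, 74.3, 79.5 and 79.8 CPM in KO and 89.2, 94.4, 85.1 and 86.0 CPM in WT. Its groups did not overlap and it fell by 14.6% (edgeR log2 fold change −0.23, SE 0.0627, adjusted p = 0.0406), but the call held in only 2 of the 8 fits without 1 library. It was lost without KO 1, KO 2 or any single WT library (edgeR adjusted p = 0.06 to 0.114) and without a filter on low counts (0.0577). Bckdha, the decarboxylase's α subunit, was read at 536, 538, 549.5 and 435 CPM in KO and 614, 634, 549 and 512 CPM in WT, with KO 4 far below the other KO libraries and overlapping groups (edgeR log2 fold change −0.17, adjusted p = 0.279). Dld, the dehydrogenase subunit shared with pyruvate dehydrogenase, and Bckdk, the kinase that inactivates the complex, differed by 0.01 and −0.10 (edgeR adjusted p = 0.946 and 0.305).

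The dehydrogenases that follow are specific to each amino acid. Ivd, the isovaleryl-CoA dehydrogenase of leucine breakdown, was read at 411, 403, 465 and 389 CPM in KO and 521, 548, 494 and 430.3 CPM in WT. WT 4 lay within the KO range, and Ivd did not pass (edgeR log2 fold change −0.26, SE 0.0833, adjusted p = 0.0726). In edgeR it passed without KO 3 or WT 4 (adjusted p = 0.0432 and 0.0271) and with upper-quartile scaling of all libraries (0.04998). With all libraries Ivd also passed in DESeq2 (adjusted p = 0.034). Acadsb of isoleucine breakdown and Acad8 of valine breakdown differed by −0.19 and −0.02 (edgeR adjusted p = 0.149 and 0.903).

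On the leucine branch, the non-biotin subunit of methylcrotonyl-CoA carboxylase was lower. Mccc2 (chr13:99948532-100015639) was read at 78.0, 78.5, 78.1 and 78.0 CPM in KO and 91.8, 96.1, 89.4 and 89.2 CPM in WT. The 4 KO libraries agreed to within 1 CPM and lay below every WT library, and the gene fell by 14.7% (78.2 ± 0.237 against 91.6 ± 3.19 CPM, SD, n = 4 each; edgeR log2 fold change −0.23, SE 0.0493, adjusted p = 0.0143). Mccc2 passed in all 8 fits without 1 library (highest adjusted p = 0.044). Its partner Mccc1, the biotin-carrying subunit, was read at 193, 199.9, 204 and 185 CPM in KO and 214, 230.2, 188 and 189 CPM in WT, with overlapping groups (edgeR log2 fold change −0.07, adjusted p = 0.591); Mccc1 shares 198 exon bases with the antisense gene Mccc1os, and the counting used no strand. Auh, the methylglutaconyl-CoA hydratase that follows, differed by 0.02 (edgeR adjusted p = 0.909).

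On the valine branch, the genes of consecutive steps were both lower. Hibch, which releases 3-hydroxyisobutyrate from its CoA ester (chr1:52845046-52920860), was read at 52.6, 55.4, 53.3 and 54.96 CPM in KO and 74.0, 70.8, 66.3 and 65.5 CPM in WT. The groups did not overlap, and Hibch fell by 21.7% (54.1 ± 1.32 against 69.1 ± 3.99 CPM, SD, n = 4 each; edgeR log2 fold change −0.35, SE 0.0564, adjusted p = 0.00281). Hibadh, which oxidizes 3-hydroxyisobutyrate (chr6:52546230-52640300), was read at 505, 516, 533 and 431 CPM in KO and 650.4, 702, 623 and 603 CPM in WT. Again every KO library was below every WT library, and Hibadh fell by 23.0% (edgeR log2 fold change −0.38, SE 0.0773, adjusted p = 0.0110). Both passed in all 8 fits without 1 library (highest adjusted p = 0.013 for Hibch and 0.0349 for Hibadh). Aldh6a1, the dehydrogenase that takes the product of Hibadh to propionyl-CoA, did not pass (edgeR log2 fold change −0.02, adjusted p = 0.851); it shares 99 exon bases with Ccdc176.

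The genes of propionyl-CoA handling did not pass the test. Pcca and Pccb, the subunits of propionyl-CoA carboxylase, differed by −0.06 and −0.04, and Mcee, the methylmalonyl-CoA epimerase, by −0.14 (edgeR adjusted p = 0.543, 0.748 and 0.204). Acat1, the thiolase that closes isoleucine breakdown and also acts in ketone body metabolism (chr9:53580522-53610350), was read at 751, 783, 801 and 686 CPM in KO and 945, 1011, 881 and 868 CPM in WT. Its groups did not overlap and it fell by 18.4% (edgeR log2 fold change −0.29, SE 0.0710, adjusted p = 0.0239). Acat1 did not pass without KO 1, WT 1 or WT 2 (edgeR adjusted p = 0.0647, 0.0656 and 0.0662). The 12 branched-chain enzymes that did not pass differed by −0.26 to 0.02, with SEs of 0.057 to 0.091.

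**Figure D2:**
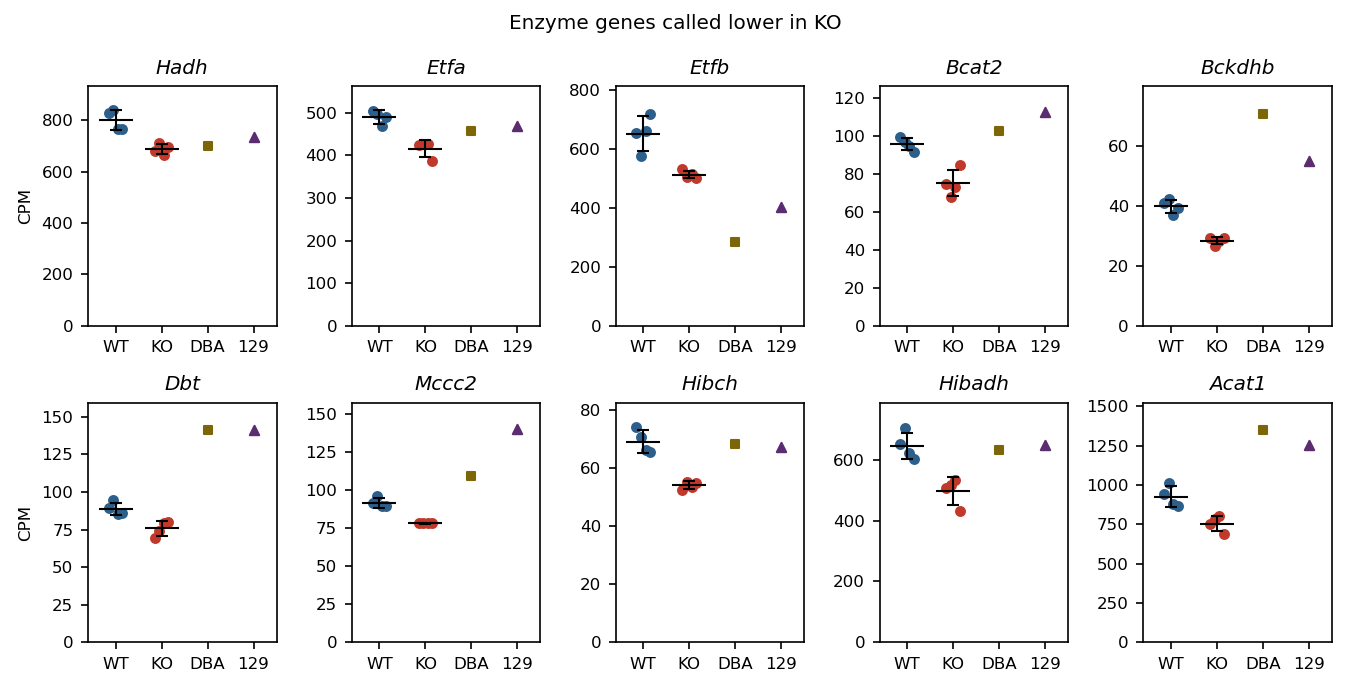
CPM of the 10 enzyme genes that were lower in KO, 1 point per library, with the mean ± SD of the 4 WT and 4 KO libraries and the single DBA_2J (DBA) and 129S2_SvPasCrl (129) libraries, which were scaled together with all 10 libraries. Each axis starts at 0, and in each panel the 4 KO points lie below the 4 WT points.

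Partner genes of 1 enzyme can be compared within a library, where depth and scaling cancel. Mccc1 reads per kilobase were 1.76, 1.81, 1.86 and 1.69 times those of Mccc2 in KO and 1.66, 1.71, 1.495 and 1.51 times in WT. The groups overlapped only between KO 4 and WT 2 (difference 0.16, log2; exact permutation test, two-sided, p = 0.0571, adjusted p = 0.171). Bckdha was 14.4, 15.9, 15.4 and 11.7 times Bckdhb in KO and 11.9, 11.9, 11.7 and 10.3 times in WT, with KO 4 among the WT libraries (difference 0.32; exact permutation p = 0.114, adjusted p = 0.229). The ratios of Etfa to Etfb (0.501 in KO, 0.466 in WT) and of Pcca to Pccb (0.332 and 0.338) overlapped between genotypes (exact permutation p = 0.286 and 0.543). Group values of a ratio are means taken on the log2 scale. The size of a ratio, like RPKM, depends on the exons counted for each gene. RefSeq also lists a Bckdhb start next to chr9:83925136, outside the counted stretch (chr9:83948781-84124240), and its part in these values was not tested. The ratio of the inactivating kinase Bckdk to the activating phosphatase Ppm1k was 8.41, 8.03, 7.11 and 7.34 in KO and 6.36, 6.38, 6.40 and 6.31 in WT. It was higher in all 4 KO libraries (7.71 against 6.36; difference 0.28; exact permutation p = 0.0286, the smallest possible), which did not pass adjustment over the 6 ratios (adjusted p = 0.171).

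**Figure D3:**
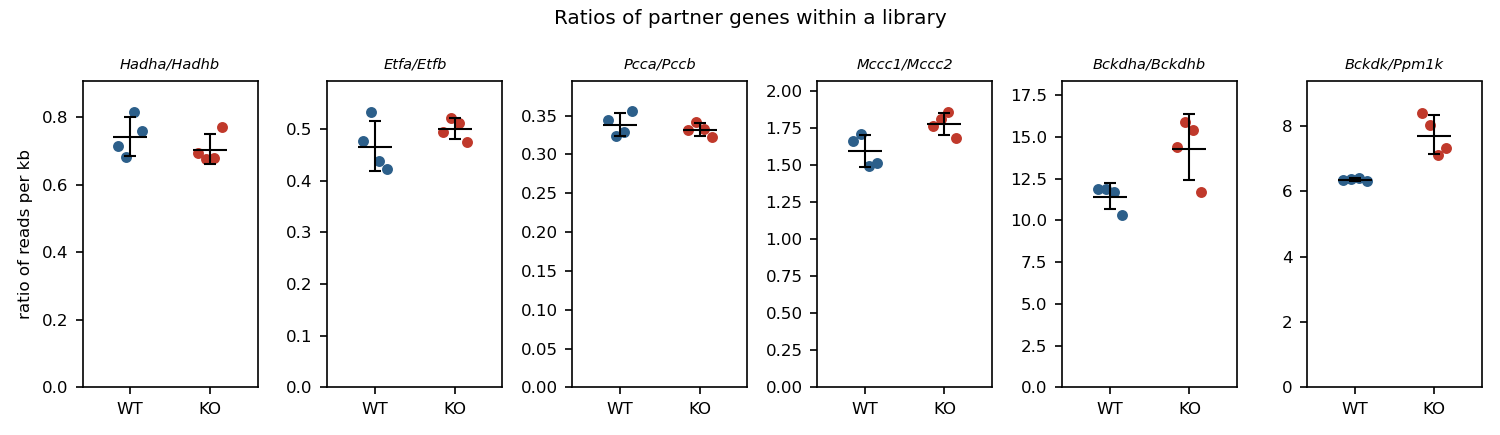
Ratio of reads per kilobase of exon of 2 partner genes in each library, with each axis starting at 0. The mean ± SD of 4 WT and 4 KO libraries was taken on the log2 scale and drawn as ratios. Only for Bckdk over Ppm1k, of the 6 ratios, do all KO points lie above all WT points.

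Other genes of these pathways were drawn from lists of further mitochondrial fatty acid oxidation genes (16 tested), further branched-chain and propionate genes (16 tested) and regulators (15 tested). Of the first, 1 was higher and 1 was lower (6.25% each, against 6.32% and 4.68% of all tested genes), with a median log2 fold change of −0.07. Acsf2, a mitochondrial acyl-CoA synthetase for medium chains, was read at 80.2, 76.4, 53.4 and 84.7 CPM in KO and 43.3, 31.1, 33.5 and 35.8 CPM in WT. It was higher in every KO library and rose (edgeR log2 fold change 1.04, SE 0.140, adjusted p = 0.00105). Mettl20, which methylates the β subunit of the electron transfer flavoprotein, was read at 9.43, 9.58, 9.09 and 7.99 CPM in KO and 11.6, 13.2, 11.0 and 12.7 CPM in WT, with no overlap, and was lower (edgeR log2 fold change −0.43, SE 0.0992, adjusted p = 0.0204; in 6 of 8 fits without 1 library, highest adjusted p = 0.0566). Both Etfb and the gene of its methyltransferase were therefore lower in KO.

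Of the further branched-chain and propionate genes, 1 of 16 was lower (6.25%, against 4.68% of all tested genes) and none was higher, with a median of −0.11. It was Ppm1k, the phosphatase that activates the ketoacid dehydrogenase complex, at 20.8, 19.3, 22.3 and 23.1 CPM in KO and 27.0, 28.7, 27.5 and 27.5 CPM in WT. All KO libraries lay below all WT libraries (edgeR log2 fold change −0.37, SE 0.0708, adjusted p = 0.00749), in all 8 fits without 1 library. Of the regulators, 1 of 15 was lower (6.67%, against 4.68%) and none was higher, with a median of −0.05. The counts of these 3 lists are thus near the shares of all tested genes. It was Sirt3, the mitochondrial deacetylase whose substrates include fatty acid oxidation enzymes, at 102, 106, 102 and 104 CPM in KO and 129, 129.7, 129 and 123 CPM in WT. The KO libraries kept within a narrow band below the WT band (edgeR log2 fold change −0.30, SE 0.0489, adjusted p = 0.00304), in all 8 fits without 1 library. Transcription factors and a coactivator known for driving fatty acid oxidation genes did not pass: Ppara differed by 0.07, Ppargc1a by −0.01, Esrra by −0.14 and Hnf4a by −0.06, and Klf15, known for branched-chain amino acid genes, by −0.06 (edgeR adjusted p = 0.804, 0.948, 0.361, 0.722 and 0.870).

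Markers of the proximal tubule, a segment rich in mitochondria, were abundant in every library, and part of them were lower in KO. Of 16 proximal tubule markers, 5 were lower (Lrp2, Slc22a8, Slc13a3, Slc7a13 and Slc27a2), which is 31.25%, against 4.68% of all tested genes. None was higher, and the median was −0.23. Slc5a12 went the other way, with all KO libraries above all WT libraries, but did not pass (edgeR log2 fold change 0.43, adjusted p = 0.0715). Slc34a1 hardly differed (edgeR −0.0006, adjusted p = 0.998). The 16 markers together summed to 25142 to 28817 CPM in KO and 29589 to 32228 CPM in WT, with no overlap. Branched-chain sums were 4762 to 5267 CPM in KO and 5249 to 6092 CPM in WT. Fatty acid sums were 6359 to 7261 CPM in KO and 7204 to 8012 CPM in WT. Over all tested genes 4.68% were lower and 6.32% higher, the shares to set beside each marker count that follows. Principal cell markers were lower for 6 of 7 (85.7%, median −0.57), with sums of 343 to 379 CPM in KO and 493 to 820 CPM in WT. Intercalated cell markers were lower for 4 of 6 (66.7%, median −0.44), namely Atp6v1g3, Slc4a1, Slc26a4 and Aqp6. The intercalated sums were 162 to 186 CPM in KO and 225 to 262 CPM in WT. Thick ascending limb markers were lower for 2 of 6 (Slc12a1 and Kcnj1) and distal convoluted tubule markers for 2 of 5 (Slc12a3 and Trpm6). Tubular injury genes were higher for 7 of 10 (median 0.96; 1257 to 2116 CPM in KO, 1000 to 1349 CPM in WT). The part of these shifts in the enzyme differences was not tested. Podocyte markers passed in neither direction (0 of 5), and endothelial and macrophage markers were lower for 1 of 6 each (Kdr and Csf1r) and fibroblast and smooth muscle markers for 3 of 6 (Acta2, Tagln and Myh11). Of 5 skeletal muscle and 5 adrenal markers, 1 each had enough counts to test, and the others reached at most 11 and 34 counts in a library.

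Fat markers differed between animals within each genotype rather than between genotypes. None of 6 passed, and their sum was 124, 104, 54.3 and 34.8 CPM in KO and 92.7, 26.7, 38.9 and 112 CPM in WT. The fatty acid enzymes summed to 7033, 7261, 6359 and 6713 CPM in KO and 8012, 7204, 7260 and 7966 CPM in WT. In each genotype, the 2 libraries with more fat marker RNA (KO 1 and KO 2, WT 1 and WT 4) also had the higher fatty acid sums. KO 1 and KO 2 are also the KO libraries without the E in the title, so within KO the fat marker level and title form cannot be told apart. The branched-chain enzymes summed to 5049, 5158, 5267 and 4762 CPM in KO and 5882, 6092, 5441 and 5249 CPM in WT and did not follow that order. With the fat marker level as a term, chosen after the data were seen, 4 fatty acid enzymes were lower, Acadm among them (edgeR adjusted p = 0.00487). With that term, 7 branched-chain enzymes were lower. The share of all tested genes called with that term is not given here, so no change particular to these enzymes can be read from it.

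**Figure D4:**
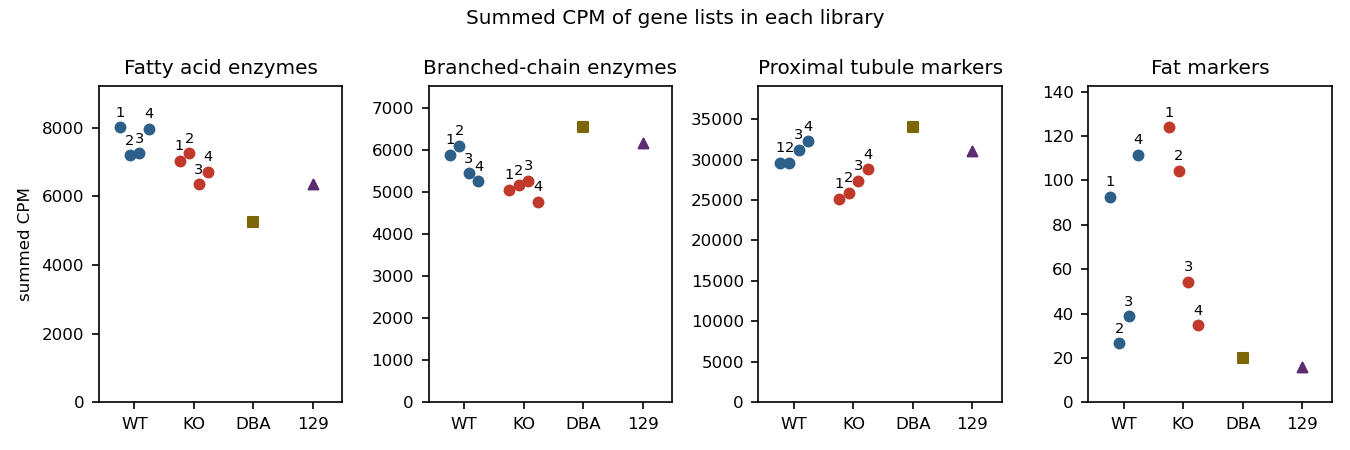
Summed CPM of 4 gene lists in each library, with numbers giving the replicate and each axis starting at 0. Proximal tubule sums in KO (25142 to 28817) lie below those in WT (29589 to 32228), while fat marker sums range from 26.7 to 124 CPM across both genotypes.

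The 10 calls were examined in each title form. With title form as a term in edgeR, 4 fatty acid enzymes (Acadm added) and 7 branched-chain enzymes were lower, beside 1157 genes higher and 893 lower. All 10 genes were lower in KO on average in both forms, which had to follow because their KO and WT libraries did not overlap. No gene of the 15547 showed a difference between forms at an adjusted p under 0.05 in edgeR. At an unadjusted p under 0.05, 1004 did, 4 of the 36 enzymes among them (Acadl, Acad10, Acaa2 and Dbt). The branched-chain enzymes had a median of −0.11 (13 of 19 below 0) in titles with the E and −0.22 (19 of 19) in titles without it. The fatty acid enzymes had medians of −0.17 and −0.13. With 2 libraries a group, no enzyme passed in the titles with the E. In the titles without it, 9 branched-chain and 3 fatty acid enzymes were lower, and 1 fatty acid enzyme, Acadl, was higher (log2 fold change 0.24). The share of all tested genes called in the fit without the E is not given here, and these counts are description only.

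In the single wild-type kidneys of other strains, many fatty acid enzymes were low, whereas no branched-chain enzyme was low by the limit used. Both were set against the same 4 WT libraries, so the strains share their controls, and 1 animal a strain gives no test. A gene was counted when it lay past 1.5-fold and outside the WT range. In DBA_2J, 7 of 17 fatty acid enzymes were lower (41.2%, against 16.6% of all tested genes) and 1 was higher (5.88%, against 11.2%). In 129S2_SvPasCrl, 8 were lower (47.1%, against 11.2%) and 2 were higher (11.8%, against 8.96%). The count in 129S2_SvPasCrl turns on the limit: past 2-fold, 1 of 17 was lower there (Decr1; 5.88%, against 5.72% of all tested genes), and 5 of 17 in DBA_2J (29.4%, against 8.08%). The median difference was −0.48 (log2) in each. The branched-chain enzymes had none lower in either strain, with 3 of 19 higher in DBA_2J (15.8%) and 2 in 129S2_SvPasCrl (10.5%) and medians of 0.10 and 0.12. Ehhadh itself was at 796 CPM in DBA_2J and 788 CPM in 129S2_SvPasCrl, beside a WT range of 2088 to 3418 CPM, and far above the KO libraries.

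The medium-chain thiolase Acaa2 stood furthest apart. It was at 57.6 CPM in DBA_2J and 259 CPM in 129S2_SvPasCrl, beside 429.9 to 556 CPM in WT, which is 8.76-fold and 1.95-fold lower than the WT mean. The enzymes for unsaturated chains were low in both: Eci1 was at 95.1 and 154 CPM beside 236 to 303 in WT. Decr1 was at 206 and 175 CPM beside 417 to 533 (2.31-fold and 2.73-fold lower). Of the long-chain enzymes, 3 were past the limit in both strains. Acadvl was at 337 and 381 CPM beside 643 to 727, Acadl at 280.4 and 302 beside 498 to 583, and Hadha at 192 and 224 beside 299 to 376. Hadhb, the partner of Hadha, was at 181 and 180.0 CPM beside 224 to 276, below the WT range but within 1.5-fold of the mean (1.38-fold and 1.39-fold lower). Etfb was at 283 and 404 CPM beside 571 to 713, below the KO libraries too, whereas Etfa was at 456 and 469 CPM beside 465 to 501 and was not counted. Etfdh was past the limit in 129S2_SvPasCrl only (182 CPM, with 205 in DBA_2J, beside 273 to 314).

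A few enzymes went the other way. Acadm, the medium-chain dehydrogenase, was at 1627 CPM in 129S2_SvPasCrl, 1.52-fold above the WT mean, and at 1024 CPM in DBA_2J, inside the WT range of 957 to 1190.1. Acad10 was at 234 CPM in 129S2_SvPasCrl and 144 CPM in DBA_2J (within 1.5-fold of the mean) beside 124 to 134. Acad9 was at 173 CPM in DBA_2J and 143 CPM in 129S2_SvPasCrl (within 1.5-fold of the mean) beside 91.3 to 101. On the branched-chain side, Dbt was at 141 and 141 CPM beside 84.6 to 93.6 and passed the limit in both strains. Bckdhb was at 70.4 CPM in DBA_2J and 54.8 CPM in 129S2_SvPasCrl (within 1.5-fold of the mean) beside 36.7 to 41.8. Both Bckdhb values were above WT, where the KO libraries were below it. Mccc1 was high in DBA_2J (333 CPM) and low in 129S2_SvPasCrl (139.8 CPM, within 1.5-fold of the mean) beside 186 to 228. Mccc2 was at 140.0 CPM in 129S2_SvPasCrl and 109 CPM in DBA_2J (within 1.5-fold of the mean) beside 88.7 to 95.2.

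Genes around the fatty acid enzymes were low in the strain libraries too, with 7 of 16 further fatty acid oxidation genes lower in each strain (43.8%, against 16.6% of all tested genes in DBA_2J and 11.2% in 129S2_SvPasCrl) and Acad12 higher in 129S2_SvPasCrl (1.77-fold). Acsl1, which activates long chains, was at 99.7 CPM in DBA_2J and 119 CPM in 129S2_SvPasCrl beside 347 to 601 in WT. Slc25a20, the carnitine carrier, was at 28.6 and 47.3 CPM beside 93.8 to 122, and Cpt2, the inner carnitine palmitoyltransferase, at 168 and 219 CPM beside 499 to 549. In KO none of these 3 passed (edgeR adjusted p = 0.411, 0.942 and 0.550). Acsf2, which rose in KO, was at 11.8 and 14.9 CPM in the strains beside 30.8 to 43.0. Ppara was at 131 CPM in DBA_2J and 168 CPM in 129S2_SvPasCrl (1.25-fold lower, within the limit) beside 171 to 250.03. Of the 15 regulators, 2 were lower in DBA_2J (Ppara and Pparg, 13.3%, against 16.6% of all tested genes). Another 2 were higher there (Ppard and Nrip1, 13.3%, against 11.2%), and 0 were counted in either direction in 129S2_SvPasCrl. Fat markers summed to 19.9 and 15.8 CPM in the strain libraries, under every C57BL/6N library, and proximal tubule markers to 33980 CPM (DBA_2J) and 30992 CPM (129S2_SvPasCrl), against 29589 to 32228 CPM in WT. Tubular injury genes were lower for 5 of 10 in DBA_2J and 4 of 10 in 129S2_SvPasCrl and higher for 1 in each, Havcr1, a marker of injured proximal tubule, at 4.07 and 62.8 CPM beside 1.33 to 2.43 in WT. Macrophage markers were lower for 2 of 6 and 4 of 6 and higher for 1, Csf1r, in each. The part of fat, injury and macrophage RNA, and of strain differences in sequence that change read mapping, in these values was not tested.

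**Figure D5:**
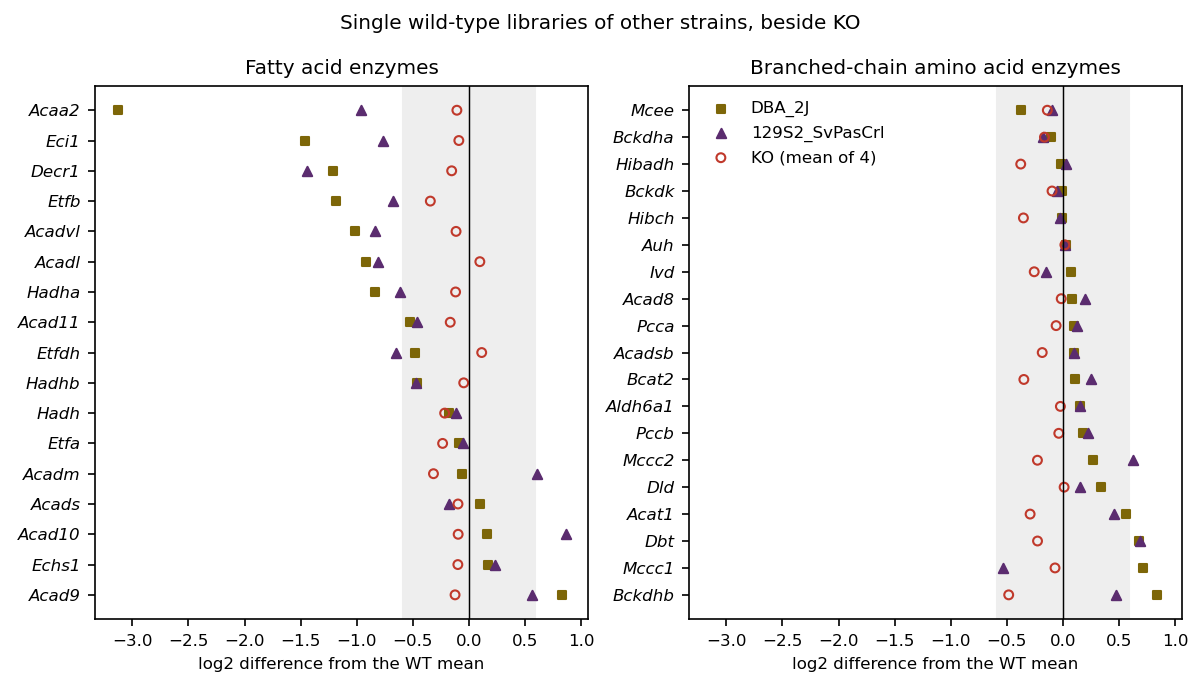
Log2 difference of each enzyme gene from the mean of the 4 WT libraries, for the single DBA_2J (squares) and 129S2_SvPasCrl (triangles) libraries and for the KO fold change (open circles, mean of 4 libraries), with the band within 1.5-fold of WT in grey. Fatty acid enzymes in the strain libraries reach down to −3.13 (Acaa2, DBA_2J), while the KO values lie between −0.48 and 0.11.

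Promoters were searched for motifs of receptors known for these pathways, in 250 bases before the starts listed by RefSeq (GRCm38.p6), on both strands. Of the 36 genes, 31 had an entry. The direct repeat AGGTCANAGGTCA, which PPAR with RXR and HNF4A bind, was matched with at most 2 mismatches over its 12 fixed positions in 3 of 31 (9.68%), beside 1005 of 27025 genes (3.72%). The estrogen-related receptor motif TCAAGGTCA was matched in 0 of 31, beside 114 of 27025 genes (0.422%). The 3 stretches with a match are shown for where it lies. Each runs 5′ to 3′ on the gene's strand, with the match in capitals; those of Etfa and Aldh6a1 read the repeat on the opposite strand. Each has 2 mismatches, and they begin 77, 83 and 107 bases before the start. The stretches are chr9:55512266-55512365 (Etfa, minus strand), chr7:140116450-140116549 (Echs1, minus strand) and chr12:84451077-84451176 (Aldh6a1, minus strand, at 1 of its listed starts).
Etfa: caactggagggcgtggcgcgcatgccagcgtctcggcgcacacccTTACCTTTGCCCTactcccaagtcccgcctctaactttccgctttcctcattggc
Echs1: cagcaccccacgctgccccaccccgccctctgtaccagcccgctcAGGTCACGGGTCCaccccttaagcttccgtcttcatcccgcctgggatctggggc
Aldh6a1: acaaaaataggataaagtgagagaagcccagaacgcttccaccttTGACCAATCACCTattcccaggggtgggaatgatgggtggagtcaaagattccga
Of these 3 genes, Etfa was lower in KO, and Echs1 and Aldh6a1 did not pass. A match in letters is no record of binding, and the data hold no measurement of any factor at these sites.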

How the data were processed

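Polyadenylated kidney RNA of 10 mice was sequenced in reads from 1 end, per the labels' protocols. The submitters' processing notes name STAR, featureCounts, edgeR and the build mm10. Per the file headers, counting used featureCounts 1.5.2 on primary alignments, summed exons by gene, assigned a read over several genes to each of them, and set no strand option. The authors deposited raw counts per library, a matrix that equalled the 10 single tables, and log2 values of 13645 genes. Those log2 values equalled voom's log2 CPM with TMM scaling to within 4.97e-14 and entered no test.

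Groups came from the labels, and each library stands for 1 animal. The enzyme genes and lists were chosen with earlier results of these data known. Counts of the 4 KO and 4 WT libraries of C57BL/6N were tested on genotype alone with edgeR 4.0.16 in R 4.3.3 (quasi-likelihood test, TMM scaling, filterByExpr). Adjustment was by Benjamini-Hochberg over the 15547 genes that passed the filter. An SE is the size of the log2 fold change divided by the square root of F. The biological coefficient of variation was 12.3%. Every one of the 12 pairs of replicates differed beyond sampling noise (chi-square of at least 10.96 for each degree of freedom). Strain libraries were compared as CPM scaled over all 10 libraries, with a prior count of 2 on the log2 scale, so WT values beside them differ slightly from those in the genotype comparison. RPKM is CPM per kilobase of the exon length in the deposited tables. Ratios were tested by exact permutation over libraries. All 36 enzymes, every called gene of the 3 pathway lists and called cell markers where 5 or fewer are named. Uncalled regulators and carnitine shuttle genes were named after their values were seen. DESeq2 1.42.0, limma 3.58.1 and other scalings, filters and subsets were tried as alternatives. With 19.8 M counts or more in each library, 1 CPM rests on about 19.8 counts or more.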

Additional observations from a re-analysis of the deposited data

Results flagged for a closer look

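In 3 of the 72 groups of 4 libraries examined (36 genes in 2 genotypes), 1 library stood apart from the other 3 beyond the limit of Dixon's test, which chance passes in about 1 group in 20. Acad9 was at 96.8 CPM in KO 2, beside 87.0 to 88.5 CPM in the other KO libraries. Etfa was at 386 CPM in KO 4, beside 425 to 427 CPM. Bckdha was at 435 CPM in KO 4, beside 536 to 550 CPM in the other KO libraries.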

How the results depend on the processing

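Of the 10 enzyme calls, 6 (Etfb, Bcat2, Bckdhb, Mccc2, Hibch and Hibadh) passed in all 8 fits that left out 1 library, and 9 in all 7 other tools and settings with all libraries, the exception being Dbt. Leaving out 1 library gave 610 to 916 genes higher and 381 to 722 lower, with 1 to 3 fatty acid enzymes lower. The count of lower genes was 395 without KO 1, 407 without KO 2, 465 without WT 1 and 381 without WT 3, and that of higher genes was 610 without KO 1 and 625 without WT 3. DESeq2 gave 1301 higher and 1087 lower, limma-voom 938 and 731, and thinning to equal depth 889 and 672. With titles carrying the E alone, 92 genes were higher, 51 lower, and 0 fatty acid and 0 branched-chain enzymes lower, and without the E 1 fatty acid enzyme was higher; the 2 libraries left in a group are fewer, and no other cause was tested. Differences (log2) of uncalled enzymes that changed sign were, with the E, −0.053 for Acadl, 0.056 for Acad10, 0.027 for Acad8, 0.044 for Mccc1, 0.055 for Pccb and 0.056 for Aldh6a1. Without the E they were 0.089 for Acaa2, −0.023 for Dld, −0.083 for Auh and 0.012 for the ratio of Pcca to Pccb, and with upper-quartile scaling −0.019 for Dld and −0.012 for Auh. Without 1 library, Hadhb ran from −0.099 to 0.013, Dld from −0.022 to 0.047, Acad8 from −0.062 to 0.031, Auh from −0.017 to 0.056 and Aldh6a1 from −0.048 to 0.015. Past 2-fold in place of 1.5-fold, 129S2_SvPasCrl had 577 genes higher and 890 lower, with 0 higher and 1 lower fatty acid enzyme and 0 higher branched-chain enzymes, and DBA_2J had 709 higher and 1256 lower, with 0 higher fatty acid and 0 higher branched-chain enzymes. With title form as a term, 1157 genes were higher and 893 lower, with 4 fatty acid and 7 branched-chain enzymes lower. No paired analysis was possible because the replicate numbers follow accession order. The cause of these changes was not tested.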
